A study of Mus musculus with 4 samples.

Results

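The genes described here encode the parts of the proteasome, the protease complex that degrades proteins tagged with ubiquitin, and of its immune form, the immunoproteasome. They were taken by symbol: every gene of the platform annotation whose name begins with Psma, Psmb, Psmc, Psmd, Psme or Psmf and a number, each represented by the brightest probe set that names that gene alone. The pattern took 45 of the 18193 genes measured. Of these, 43 encode subunits, activators, an inhibitor or assembly chaperones of the proteasome, and they are the genes counted below. The remaining 2, Psmc3ip, a cofactor of meiotic recombination, and Psme3ip1, whose product binds the Psme3 protein, carry such names only because of the protein they bind and are given separately. Psme2, the partner of Psme1, has no probe set to itself in that annotation and was not analysed here. RNA came from T29, a mouse line established from a thymic lymphoma. There were 2 arrays of cells given DMSO, the solvent, and 2 of cells given MRK003, a gamma-secretase inhibitor (GSI). The label text, which is the same for all 4 samples, writes the inhibitor's dose as 5 mM and its duration as 36 h, so the groups come from the sample titles and the unit of the dose could not be checked. Whether the replicates of a group came from separate cultures is not stated, and the p-values below therefore reflect only how far these arrays differ, which may be technical.

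The proteasome is built from a 20S core, a barrel of alpha and beta rings, and caps that open it. In the core, the beta subunits encoded by Psmb5, Psmb6 and Psmb7 cut peptide bonds, and in lymphoid cells and after interferon they are replaced by those of Psmb8, Psmb9 and Psmb10, which favour peptides suited to MHC class I presentation. The 19S cap recognises ubiquitin, unfolds the substrate with a ring of ATPases and feeds it into the core, while 11S and PA200 activators open the core without ubiquitin recognition. The thymus has a form of its own: cortical epithelial cells carry the catalytic subunit Psmb11.

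Values are deposited RMA expression values on the log2 scale, so a difference of 1 is a doubling. The 4 arrays had median values of 4.86 to 4.89 over all probe sets, and the 2 arrays of a group correlated at 0.996 (DMSO) and 0.997 (GSI) across probe sets. The Notch target Dtx1 served as a check of the treatment and fell 11.6-fold with GSI, and Hes1 fell 4.79-fold (limma, Benjamini-Hochberg adjusted p = 0.000534 and 0.00101). With 1 array left out few genes of any kind were called (6, 6, 0 and 0 of all genes), and Hes1 (adjusted p 0.0563 to 0.0733) and, without either GSI array, Dtx1 (0.0563 and 0.0608) missed the threshold in limma. Of 9 measured T lineage markers 7 lay at or above the level of the median gene (5.78), among them Cd3d, Cd3e, Cd3g, Thy1 and Bcl11b, while Cd2 and Cd5 lay below it. With GSI, Cd247, Thy1 and Themis rose and Cd3g fell, and their part in the results below was not tested. In limma, Thy1 and Cd3g missed the threshold with all probe sets in the test (adjusted p = 0.0770 and 0.0784), and Cd247 did when its probe sets were averaged (0.41, adjusted p = 0.0806). With the replicate number as a block Thy1, Themis and Cd3g missed it (limma, adjusted p = 0.0947, 0.0815 and 0.106), and with any 1 array left out all 4 genes did (0.115 to 0.298). None of the 5 B cell or 3 natural killer markers reached the median gene's level, and of the myeloid, stromal and erythroid markers only Cd14, Pdgfrb and Epor did. Pdgfrb fell (-1.28), but not past the threshold with any 1 array left out (limma, adjusted p 0.0742 to 0.126).

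The comparison of GSI with DMSO asks how proteasome genes respond when gamma-secretase, and with it Notch cleavage, is inhibited. With GSI, 33 of the 43 genes had a lower mean and 10 a higher one, or 76.7% lower against 53.0% of all 18193 genes. The median difference was -0.14 on the log2 scale, against -0.01 over all genes. Lower means prevailed in the 20S core (12 of 14 constitutive genes) and the 19S cap (15 of 17), and the sizes were small: differences ran from -0.41 for Psme3 to 0.29 for Psme1. The immunoproteasome genes Psmb8, Psmb9 and Psmb10 differed by 0.15, 0.12 and -0.0035. No single gene passed the test. Limma called 0 of the 43 in either direction at an adjusted p under 0.05, where 4.12% of all genes were called, 2.56% higher and 1.56% lower, and the smallest adjusted p among them was 0.1005. At an unadjusted p under 0.05, 11 were lower and 1 was higher, against 10.7% and 10.8% of all genes. In 31 of the 43 both GSI arrays lay below both DMSO arrays, which held for 27.7% of all genes, and in 5 both lay above, against 23.7%. Among genes at or above the level of the median gene the corresponding shares were 34.0% below and 32.7% above, and 31 and 5 of the 42 proteasome genes at that level lay below and above. Such counts describe these arrays, since the genes are measured on the same 4 arrays and are not replicates.

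The number of calls changed with the variance model and with the genes tested. When the prior variance was allowed to follow intensity and made robust, limma called 8 lower (Psmd7, Psmd2, Psmb3, Psme3, Psmd6, Psmd11, Psmc2 and Psmd1) and 1 higher (Psme1), where 4.94% and 5.73% of all genes were called. With dim genes left out it called Psmd7 and Psme3 lower and Psme1 higher, against 9.11% and 11.1% of the genes then tested. The DMSO arrays also stood apart from one another in these genes. On DMSO replicate 1, 35 of the 43 were higher, against 10026 of all 18193 genes. The median difference between the DMSO arrays was 0.068, against 0.021 over all genes. On GSI replicate 2, 29 of the 43 were higher than on GSI replicate 1, against 8346 of all genes. The median difference there was 0.031, against -0.014 over all genes. Without DMSO replicate 1 the median difference between groups was -0.091, and without DMSO replicate 2 it was -0.17. The part of single arrays in the shift was not tested beyond these values.

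**Figure D1:**
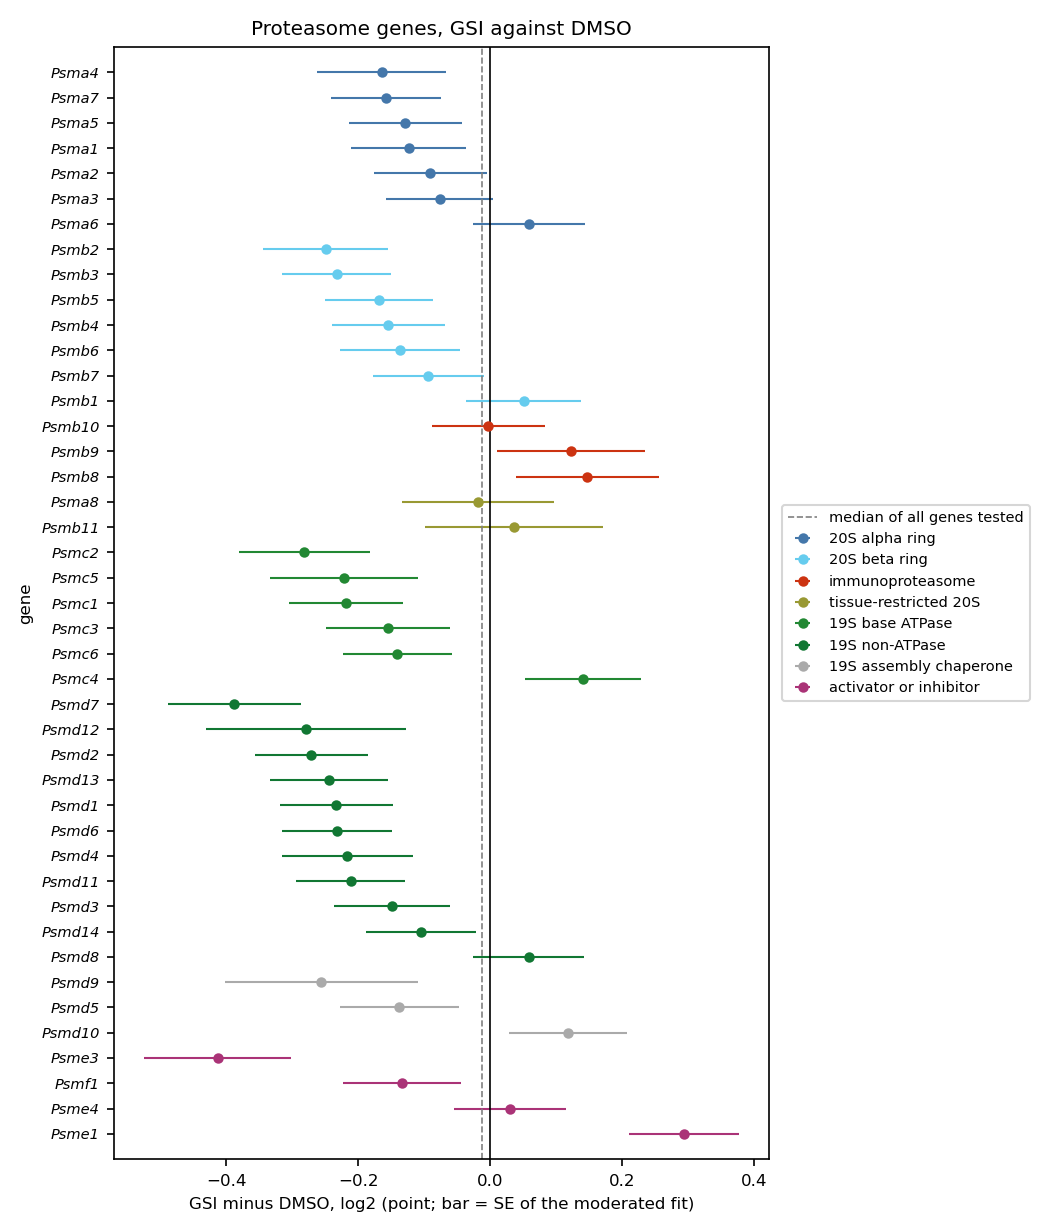
Difference between GSI and DMSO on the log2 scale (x axis) for each of the 43 proteasome genes (y axis), coloured by subcomplex, with the standard error of the limma fit as a bar and the median of all genes as a dashed line. Most core and cap genes lie left of 0. To the right lie 10 genes, among them Psmb8, Psmb9, Psme1, Psmc4 and Psmd10, while Psmb10 lies close to 0 (-0.0035).

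The alpha ring forms the gate of the core. Of its 7 general subunits 6 had lower means, with a median difference of -0.12, and none passed limma. Psma4 read 11.82 and 11.65 with DMSO and 11.54 and 11.60 with GSI, the lowest difference of the ring (-0.16 ± 0.097, SE). Its groups did not overlap, but the DMSO arrays were 0.17 apart, as far as the groups. Psma7, Psma5 and Psma2 differed by -0.16, -0.13 and -0.091. Psma6 was the exception to the direction, at 12.23 and 12.18 with DMSO and 12.24 and 12.30 with GSI (difference 0.059). Psma8, which replaces Psma7 in the germ cell proteasome, read 8.65 and 8.90 with DMSO and 8.70 and 8.81 with GSI, and its groups overlapped. Of 5 germ cell markers, Ddx4, Dazl and Sycp3 were dim on the same arrays, at 2.56 to 3.32, while Stra8 and Prm1 read 6.27 to 7.16. Psma8 is a close relative of Psma7, so whether its probe set reads Psma8 RNA alone is uncertain.

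In the beta ring 6 of the 7 constitutive genes had lower means, with a median of -0.15. Psmb2 and Psmb3, structural subunits without a catalytic site of their own, differed most. Psmb2 read 10.92 and 10.82 with DMSO against 10.56 and 10.68 with GSI (-0.25 ± 0.095, SE, adjusted p = 0.207 by limma). Psmb3 read 11.65 and 11.60 against 11.38 and 11.40 (-0.23 ± 0.083, SE, adjusted p = 0.185 by limma). In both genes the gap between the groups was larger than the gap within them, yet neither passed once all genes were accounted for. Psmb1 read 11.84 and 11.76 with DMSO and 11.88 and 11.81 with GSI, and its groups overlapped (difference 0.051). Psmb4 depended on the probe set. The brighter one went from 11.85 and 11.78 to 11.64 and 11.70 (-0.15), and the second from 11.29 and 11.39 to 11.43 and 11.49 (0.12).

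**Figure D2:**
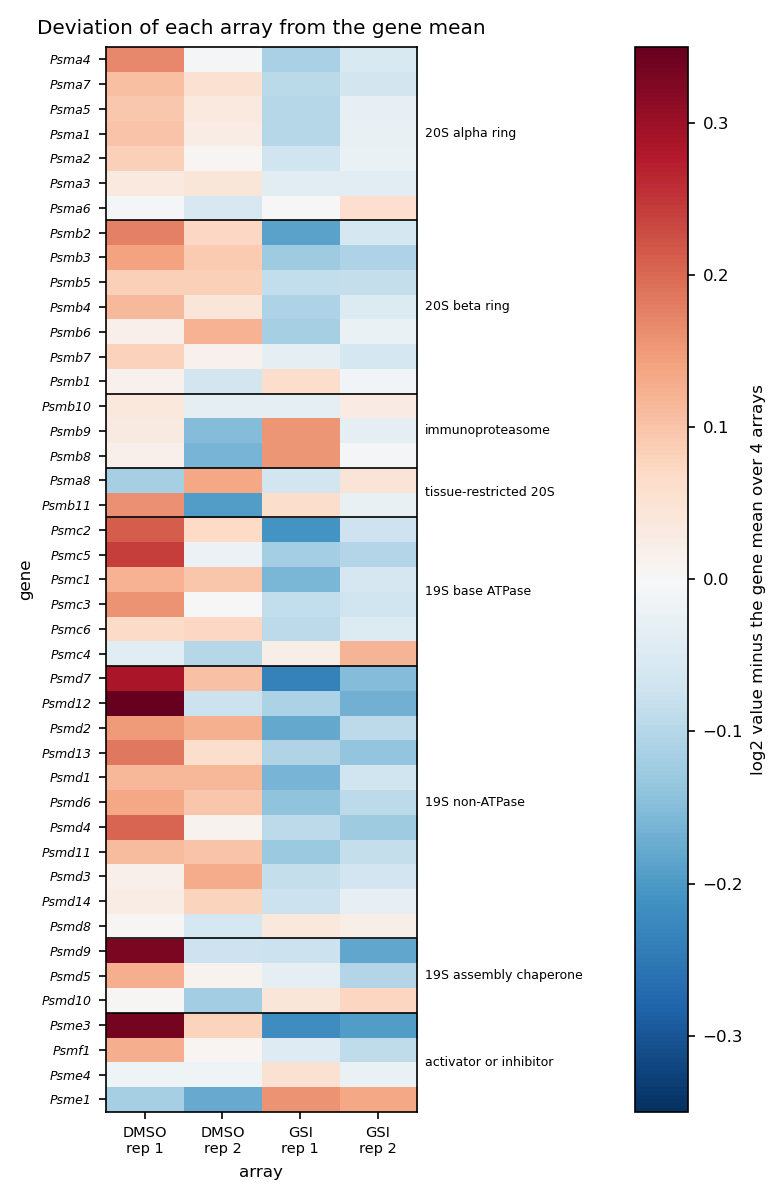
Each array's log2 value minus the gene's mean over the 4 arrays (colour), for the 43 proteasome genes (rows, grouped by subcomplex) on the 4 arrays (columns). The DMSO arrays are mostly red and the GSI arrays mostly blue in the core and cap, DMSO replicate 1 more so than DMSO replicate 2, while Psme1 runs the other way and Psmb8 and Psmb9 are highest on GSI replicate 1.

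The 3 catalytic sites are where the constitutive and immune cores differ, and the genes for both forms are compared next. The 250 bases before the RefSeq start of 5 of these genes are shown because they are the stretch next to the start in which the immune and constitutive genes can be compared; Psmb7 had no entry. They are written 5′ to 3′ on the strand of the gene, from RefSeq on GRCm38.p6. Capitals mark matches, on either strand, to the interferon-stimulated response element core (GAAA, any 2 bases and GAAA again), the antioxidant response element core TGANNNNGC, the CCAAT box and the E-box CACGTG.
Psmb8, chr17:34197945-34198194, plus strand: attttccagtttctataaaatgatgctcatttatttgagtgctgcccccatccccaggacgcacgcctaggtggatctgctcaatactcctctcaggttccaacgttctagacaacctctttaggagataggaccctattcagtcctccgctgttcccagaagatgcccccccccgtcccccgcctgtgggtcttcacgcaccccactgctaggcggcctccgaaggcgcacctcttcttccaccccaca
Psmb9, chr17:34187331-34187580, minus strand: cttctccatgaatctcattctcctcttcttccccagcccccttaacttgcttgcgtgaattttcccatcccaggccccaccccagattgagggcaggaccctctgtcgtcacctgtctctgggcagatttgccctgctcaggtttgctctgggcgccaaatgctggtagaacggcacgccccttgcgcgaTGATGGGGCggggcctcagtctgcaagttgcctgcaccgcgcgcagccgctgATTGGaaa
Psmb10, chr8:105938393-105938642, minus strand: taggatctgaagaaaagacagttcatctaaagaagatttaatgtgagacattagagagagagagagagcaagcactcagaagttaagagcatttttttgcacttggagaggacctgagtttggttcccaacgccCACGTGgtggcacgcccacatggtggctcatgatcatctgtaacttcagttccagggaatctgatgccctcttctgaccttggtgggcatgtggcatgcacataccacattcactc
Psmb5, chr14:54617996-54618245, minus strand: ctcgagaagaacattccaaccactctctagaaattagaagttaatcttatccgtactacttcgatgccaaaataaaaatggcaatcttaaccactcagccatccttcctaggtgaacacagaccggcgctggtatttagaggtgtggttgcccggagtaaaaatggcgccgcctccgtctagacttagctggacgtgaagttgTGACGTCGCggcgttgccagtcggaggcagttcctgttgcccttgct
Psmb6, chr11:70525107-70525356, plus strand: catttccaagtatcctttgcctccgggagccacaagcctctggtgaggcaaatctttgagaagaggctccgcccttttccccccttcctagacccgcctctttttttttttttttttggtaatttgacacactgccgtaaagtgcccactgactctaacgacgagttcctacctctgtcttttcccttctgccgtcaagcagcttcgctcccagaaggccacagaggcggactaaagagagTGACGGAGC
The 38 windows of 36 proteasome genes held the interferon element core in 7.89% of cases, against 2.98% of all 32851 windows of the table. The matches were in Psmb3, Psmd4 and Psmd9, and those letters did not occur in the windows of Psmb8, Psmb9 or Psmb10. The antioxidant element core, the motif bound by NFE2L1 and NFE2L2, occurred in 36.8% of the proteasome windows and 35.2% of all. Psmb5, Psmb6 and Psmb9 each held 1 match, ending 39, 1 and 52 bases before the start. The CCAAT box occurred in 36.8% against 33.8%, and the E-box in 10.5% against 6.02%. The E-box windows were those of Psma4, Psmb10, Psmd9 and Psme3. These are matches of letters and do not show binding. Nor does a missing match show that a gene lacks such an element, since other forms and positions were not searched.

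Psmb8 encodes the immune counterpart of the chymotrypsin-like subunit. With DMSO it read 11.73 and 11.55, and with GSI 11.87 and 11.70. GSI replicate 1 was the highest and DMSO replicate 2 the lowest, and the groups overlapped, since GSI replicate 2 lay below DMSO replicate 1. The difference was 0.15 (95% interval -0.12 to 0.41, limma, adjusted p = 0.502), or 1.11-fold higher with GSI. Without DMSO replicate 2 it was 0.057, and without DMSO replicate 1 it was 0.24. A second, dimmer Psmb8 probe set read 6.67 and 6.50 with DMSO and 6.96 and 7.01 with GSI, with no overlap and a difference of 0.41 (limma over all probe sets, adjusted p = 0.141).

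Psmb9, the counterpart of the caspase-like subunit, read 10.12 and 9.93 with DMSO and 10.24 and 10.05 with GSI. It followed the same order of arrays as Psmb8, with both first replicates above both second ones. The difference was 0.12 (95% interval -0.15 to 0.40, limma, adjusted p = 0.598). Psmb10, the counterpart of the trypsin-like subunit, read 10.03 and 9.96 with DMSO and 9.96 and 10.02 with GSI. The difference of -0.0035 had a 95% interval of -0.21 to 0.21 (limma, adjusted p = 0.991), so changes within that range could not be told from none with these arrays.

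The constitutive partners all read lower with GSI, and none of the 3 overlapped. Both GSI arrays lay below both DMSO arrays in 27.7% of all genes and 34.0% of those at or above the median gene's level. Psmb5 stood at 11.33 on either DMSO array and at 11.16 on either GSI array, a difference of -0.17 (95% interval -0.37 to 0.032, limma, adjusted p = 0.304). Psmb6 went from 11.55 and 11.65 to 11.42 and 11.51, a difference of -0.14 (95% interval -0.36 to 0.087, limma, adjusted p = 0.453). Psmb7 went from 12.13 and 12.07 to 12.02 and 11.99, a difference of -0.094 (95% interval -0.30 to 0.11, limma, adjusted p = 0.590). All 3 intervals include 0.

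**Figure D3:**
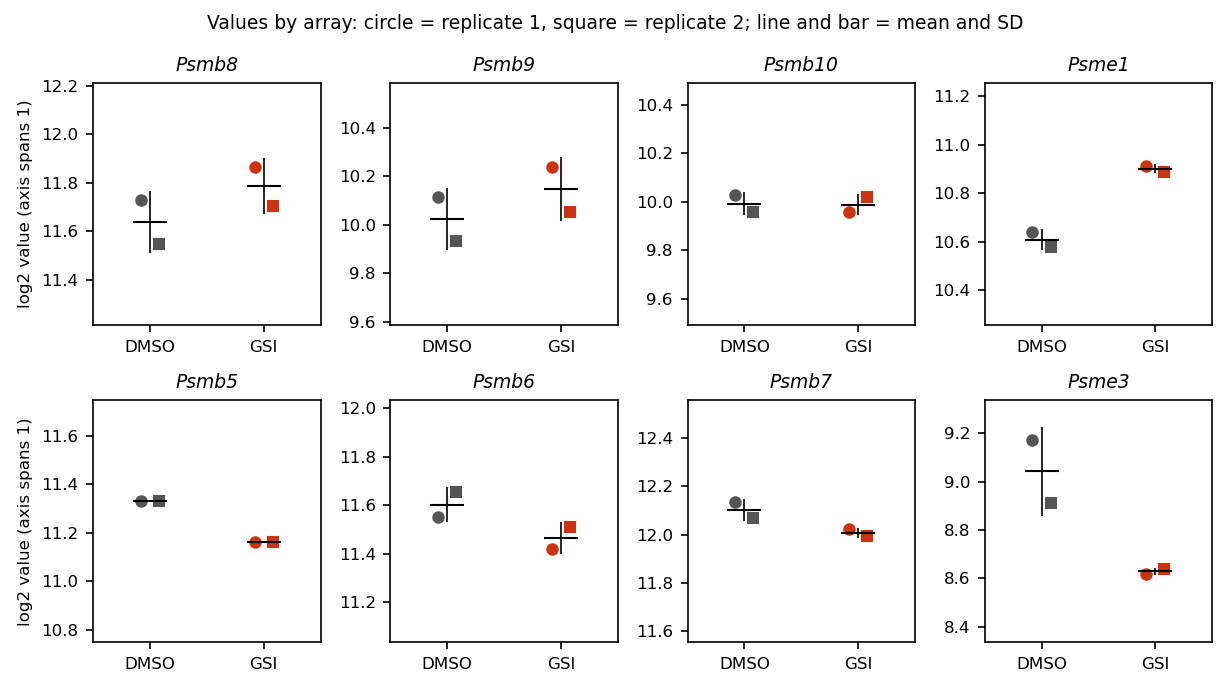
Log2 values (y axis, each panel spanning 1 unit) on the 4 arrays for the immunoproteasome genes and Psme1 (top) and for the constitutive partners and Psme3 (bottom). Circles are replicate 1, squares replicate 2, and the line and bar are the mean and SD. The groups overlap in the 3 immunoproteasome genes and not in the other 5. Among all genes, both GSI arrays lie below both DMSO arrays in 27.7% and above them in 23.7%.

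Each immune subunit was then set against its constitutive partner within the same array, which removes what the 2 genes share on that array. Only the change of this difference between arrays can be read, since levels of different probe sets are not comparable. Psmb8 minus Psmb5 was 0.40 and 0.22 with DMSO and 0.70 and 0.54 with GSI, 0.32 higher with GSI and without overlap. Psmb9 minus Psmb6 was -1.43 and -1.72 with DMSO and -1.18 and -1.46 with GSI, 0.26 higher but with overlap. Psmb10 minus Psmb7 was -2.11 on both DMSO arrays and -2.06 and -1.97 with GSI, 0.090 higher and without overlap. In that pair Psmb10 itself differed by -0.0035 and Psmb7 by -0.094, so the rise came from the lower partner. In the other pairs both genes contributed: Psmb8 0.15 and Psmb5 -0.17, Psmb9 0.12 and Psmb6 -0.14. How often other pairs of genes separate without overlap was not counted. The 2-sided exact permutation p was 0.333, 0.667 and 0.333 (0.500, 0.667 and 0.500 after Benjamini-Hochberg adjustment over the 3 pairs). With 2 arrays against 2, the exact permutation test cannot give a p below 0.333 and so cannot reach 0.05. With each array left out the 3 differences ranged from 0.23 to 0.41, 0.12 to 0.40 and 0.046 to 0.14. For Psmb8 with Psmb5 and Psmb10 with Psmb7 the sign could not turn, since both GSI values lay above both DMSO values.

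**Figure D4:**
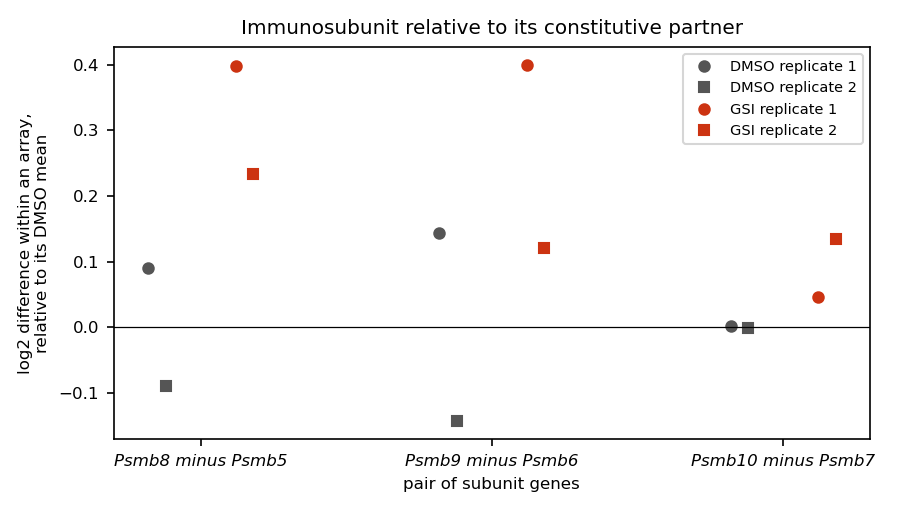
Immunosubunit minus constitutive partner within each array (log2), shown relative to the mean of the DMSO arrays of that pair (y axis), for the 3 pairs (x axis). Grey points are DMSO and red points GSI, circles replicate 1 and squares replicate 2. The GSI points lie above both DMSO points for Psmb8 with Psmb5 and Psmb10 with Psmb7. How often other pairs of genes separate in this way was not counted.

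The thymic subunit gene Psmb11 was dim, at 3.80 and 3.45 with DMSO and 3.70 and 3.62 with GSI, below the level of the median gene. The cortical epithelial markers Foxn1, Prss16 and Krt8 were below that level too, and 2 of the 8 markers of these cells, Ccl25 and Cd274, were above it. The Psmb11 groups overlapped, and its difference of 0.035 turned negative without DMSO replicate 2 or without GSI replicate 1.

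In the 19S cap 15 of the 17 ATPase and non-ATPase genes had lower means, with a median of -0.22. Among the 6 ATPases, which unfold the substrate, the median was -0.19. Psmc2 read 11.79 and 11.65 with DMSO and 11.37 and 11.50 with GSI (-0.28 ± 0.100, SE, adjusted p = 0.183 by limma). A second bright probe set of Psmc2 differed by -0.33. Psmc1 went from 10.53 and 10.50 to 10.25 and 10.35 (-0.22), and Psmc5 from 10.89 and 10.62 to 10.53 and 10.54 (-0.22). Psmc3 and Psmc6 differed by -0.16 and -0.14, and in each of these 5 genes both GSI arrays lay below both DMSO arrays. This order held for 27.7% of all genes and 34.0% of those at or above the median gene's level. Psmc4 was the only ATPase gene with a higher value, from 11.36 and 11.30 to 11.42 and 11.51 (0.14), but its second probe set went the other way, from 10.87 and 10.74 to 10.51 and 10.52 (-0.29). The direction of Psmc4 is therefore uncertain, and as the mean of its probe sets it was -0.075.

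Of the 11 non-ATPase genes of the cap 10 had lower means, with a median of -0.23, and in those 10 the groups did not overlap, with both GSI arrays lower, as in 27.7% of all genes and 34.0% of those at or above the median gene's level. Psmd7, a lid subunit that pairs with the deubiquitinase, read 10.49 and 10.30 with DMSO and 9.97 and 10.05 with GSI, a 1.31-fold lower level (-0.39 ± 0.10, SE, adjusted p = 0.1005 by limma). Its dimmer probe sets differed by -0.080 and 0.12. Psmd2, the large scaffold of the base, read 11.33 and 11.31 with DMSO and 11.00 and 11.09 with GSI (-0.27 ± 0.086, SE, adjusted p = 0.148 by limma). Its sister scaffold Psmd1 read 11.07 on both DMSO arrays and 10.79 and 10.89 with GSI (-0.23).

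Among lid genes, Psmd6 went from 11.44 and 11.40 to 11.16 and 11.22 (-0.23) and Psmd11 from 11.72 and 11.71 to 11.48 and 11.52 (-0.21). Psmd13 went from 9.95 and 9.83 to 9.66 and 9.63 (-0.24), and the ubiquitin receptor gene Psmd4 differed by -0.22. In Psmd12 a single array stood apart: it read 10.60 on DMSO replicate 1 but 10.17 on DMSO replicate 2, against 10.13 and 10.08 with GSI. Psmd14, the deubiquitinase of the lid, and Psmd3 differed by -0.105 and -0.15. Psmd8 was the only gene of this group with a higher mean, from 10.97 and 10.90 to 11.00 and 10.98 (0.058). Of the base assembly chaperones, Psmd9 was measured at 8.13 and 7.73 with DMSO and 7.73 and 7.62 with GSI, so that only DMSO replicate 1 stood apart. Psmd5 differed by -0.14. Psmd10, also known as gankyrin, read 8.64 and 8.52 with DMSO and 8.68 and 8.71 with GSI (0.12).

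Of the 3 activator genes and the inhibitor gene 2 had higher and 2 lower means, and none passed limma. Psme1 encodes the alpha subunit of the 11S activator PA28, which is induced by interferon and acts with the immunoproteasome. Its values were 10.64 and 10.58 with DMSO and 10.91 and 10.89 with GSI, 1.23-fold higher (0.29 ± 0.083, SE, adjusted p = 0.121 by limma). The gap between the groups was several times the gap within either. Psme3, the gamma subunit of a nuclear 11S activator, read 9.17 and 8.91 with DMSO and 8.62 and 8.64 with GSI, 1.33-fold lower (-0.41 ± 0.11, SE, adjusted p = 0.109 by limma). A second probe set of Psme3 of like brightness differed by -0.25. Both genes passed with dim genes left out (limma, adjusted p = 0.0394 for Psme1 and 0.0400 for Psme3). Psme4, encoding PA200, read 10.48 on either DMSO array and 10.55 and 10.47 with GSI, with overlap (0.029), and Psmf1, encoding the inhibitor PI31, differed by -0.13.

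Several genes had more than 1 probe set. Of the 20 genes with several probe sets at or above the level of the median gene, 8 had sets pointing in both directions: Psma1, Psma3, Psmb1, Psmb4, Psmc4, Psmd11, Psmd13 and Psme4. In Psma1, Psma3, Psmb1, Psmd11 and Psmd13 the opposing sets were dimmer, at means of 6.02 to 6.31. The brightest opposing sets of Psmb1, Psmd11 and Psmd13 differed by -0.043, 0.038 and 0.0055. The main Psma1 probe set went from 11.59 and 11.51 to 11.39 and 11.46 (-0.12), while the dimmer one differed by 0.17. That of Psma3 went from 12.22 and 12.22 to 12.14 and 12.14 (-0.077), while the dimmer one differed by 0.24. Psme4 had a second probe set of 9.79 and 9.88 with DMSO and 9.73 and 9.70 with GSI (-0.12). The 29 further probe sets at that level had a median difference of -0.11, and 22 of them were lower. None of the 92 probe sets passed limma over all probe sets. The 2 interacting protein genes differed by -0.13 (Psmc3ip, groups overlapping) and -0.066 (Psme3ip1).

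Genes that act with the proteasome were followed in the same fit, and members without a probe set of their own are not counted. All 6 measured genes listed as assembly factors outside the subunit names had lower means, as did 53.0% of all genes. Their median was -0.19, and none passed. The list includes Akirin2, a factor of proteasome import into the nucleus rather than an assembly chaperone, whose groups overlapped (-0.020). Psmg3 was at 9.84 and 9.59 with DMSO and 9.24 and 9.39 with GSI (-0.40, limma, adjusted p = 0.133), and Psmg1 differed by -0.21. Of 12 receptors, deubiquitinases and shuttle factors 9 had lower means and none passed, with a median of -0.21. Rad23b, a shuttle that carries ubiquitinated proteins to the proteasome, read 10.74 and 10.77 against 10.26 and 10.35 (-0.45, limma, adjusted p = 0.0511). Ecpas, a proteasome adaptor gene, differed by -0.32 (limma, adjusted p = 0.116).

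All 7 genes of the VCP unfoldase and its cofactors had lower means, as did 53.0% of all genes. Their median was -0.036, and none passed. Faf1 and Nsfl1c, both VCP adaptors, differed by -0.27 and -0.33. Among 8 regulators of proteasome gene transcription 5 had higher means and none passed. Ngly1, which activates NFE2L1 by removing its sugars, differed by 0.34 (limma, adjusted p = 0.0924), and Stat3 by 0.46 (limma, adjusted p = 0.104). Nfe2l1, also chosen after its values were seen, induces subunit genes when proteasomes are impaired and had overlapping groups (-0.016). Of the ubiquitin and E1 list only Uba6 of 6 genes was measured (-0.16).

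Of 12 genes of MHC class I peptide loading 1 rose, Tapbpl, an editor of class I peptides, from 7.43 and 7.32 to 7.92 and 7.88 (0.52, limma, adjusted p = 0.0390). The other 11 did not pass, and the list's median was 0.094, with 7 means higher and 5 lower. The 5 lower were H2-K1 (-0.29), Calr (-0.13), Canx (-0.10), H2-D1 (-0.036) and Pdia3 (-0.0063). Tapbp, named after its values were seen, had the largest difference of the list (0.73, limma, adjusted p = 0.0526). Over all genes 2.56% were called higher. Tap1 and Tap2, chosen after their values were seen because they alternate with Psmb9 and Psmb8 in the gene order of GRCm38.p6, encode the peptide transporter. Tap1 read 8.30 and 8.17 with DMSO and 8.73 and 8.47 with GSI (0.36, limma, adjusted p = 0.154). Tap2 read 10.07 and 9.86 with DMSO and 10.66 and 10.46 with GSI (0.60, limma, adjusted p = 0.0544). In neither gene did the groups overlap, with both GSI arrays higher, as in 32.7% of genes at or above the median gene's level. The groups overlapped in the brightest probe sets of Psmb8 and Psmb9, but not in the dimmer Psmb8 probe set.

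Of 14 genes of interferon signalling 3 rose and none fell, where 2.56% of all genes were called higher and 1.56% lower. Higher means were found in 12, and the list's median was 0.27. The receptor genes Ifngr1, Ifnar2 and Ifnar1 rose 1.81-fold, 1.52-fold and 1.51-fold (limma, adjusted p = 0.0295, 0.0278 and 0.0270). With all probe sets in the test, Ifngr1, Ifnar2, Ifnar1 and Tapbpl missed the threshold (limma, adjusted p = 0.0526, 0.0540, 0.0535 and 0.0745). They also missed it with the replicate number as a block (limma, adjusted p = 0.102, 0.0804, 0.0848 and 0.0991) and with any 1 array left out (0.127 to 0.294). Irf1, chosen after its values were seen, drives Psmb9 and Tap1 after interferon and read 8.06 and 8.05 with DMSO and 8.42 and 8.15 with GSI (0.23, limma, adjusted p = 0.319).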

How the data were processed

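Gene expression was measured in 4 samples on Affymetrix arrays, 2 per group, from biotin-labelled total RNA. The deposited values are log2 expression per probe set, made by the authors with RMA (background correction, normalization between arrays and summary of probes), per the submitters' processing notes. Its version is not stated in any label. RMA compresses differences of dim probe sets. Groups were taken from the sample titles.

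Of 45101 probe sets, 64 controls were left out, and 34945 of the rest had 1 gene symbol. Symbols were updated to RefSeq (GRCm38.p6), where 34741 were found. The brightest probe set stood for each gene. Groups were compared in limma (version 3.58.1, R version 4.3.3; lmFit, then eBayes; group as the only term, two-sided) over all 18193 genes, with Benjamini-Hochberg adjustment and a threshold of 0.05. The fit had 5.80 degrees of freedom, 3.80 of them from the prior. Intervals are 95% and come from the same fit. SE is that of the fit and n is 2 per group throughout. The step was tested on simulated data, with genes shifted by more than any proteasome difference reported here. That test does not show how often changes of the sizes found here would be called. The number of arrays limits the precision.

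All members were accounted for. Full statistics were given for the 6 catalytic genes. The genes with the highest and lowest difference per subcomplex and those whose probe sets disagree in sign were named with their values. Of each related list, up to 4 called genes or else the 2 with the smallest p were named. Other genes given with array values, and other genes named from the related lists, were chosen after their values were seen. The members and lists were chosen with earlier results of these data known. Promoter windows were searched for letters on both strands. The alternatives tested each probe set separately, averaged the probe sets of a gene, dropped genes with a mean under 5.78, used a trend and robust prior, centred arrays, applied cyclic loess, added a replicate block, required a 2-fold change, or left out single arrays.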

Additional observations from a re-analysis of the deposited data

How the results depend on the processing

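The count of 0 called proteasome genes in each direction held with every probe set tested on its own, probe set means, centred arrays and cyclic loess. It was also 0 to 0 in both directions with single arrays left out, where only 6, 6, 0 and 0 genes were called over all genes, so these fits say nothing about its stability; nor does a required 2-fold change, which can only keep a count of 0. The count rose with a trend and robust prior (1 higher and 8 lower) or with dim genes left out (1 higher and 2 lower), where more genes were called over all genes too (1941 and 1838 against 750). The median difference kept its sign throughout and lay between -0.17 and -0.091 with an array left out. With the 2 interacting protein genes added, an alternative chosen after seeing the data, it was -0.14. The immune minus constitutive differences ranged from 0.23 to 0.41 (Psmb8), 0.12 to 0.40 (Psmb9) and 0.046 to 0.14 (Psmb10) with an array left out.

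The labels number the replicates alike in both groups but do not say that a number marks a shared culture. Deviations of same-numbered arrays correlated at 0.085 over all genes and at 0.47 over the 43 proteasome genes. Yet most of the 43 were higher on DMSO replicate 1 (35) but on GSI replicate 2 (29). With the replicate number as a block, 0 proteasome genes were called in either direction and 217 of all genes, and the calls of Tapbpl, Ifngr1, Ifnar1, Ifnar2, Thy1, Themis and Cd3g were lost. Psmb8 differed by 0.15 under the replicate block (adjusted p = 0.408).

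Signs turned for 9 proteasome genes under these alternatives. As the mean of their probe sets Psma1 was 0.011, Psma3 0.079, Psma6 -0.057, Psmb1 -0.024 and Psmc4 -0.075. With cyclic loess Psma8 was 0.00090 and Psmb10 0.016. With an array left out Psma8 lay between -0.14 and 0.11, Psmb10 between -0.037 and 0.030, Psmb11 between -0.14 and 0.21 and Psme4 between -0.0085 and 0.067. The cause of these changes was not tested. With 1 array left out, the lone array is assumed to vary like the other group.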
